A study of Mus musculus with 18 samples.

Results

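Ibrutinib was compared with its solvent in CD8+ T cells that had been exhausted in vitro by repeated peptide stimulation. The comparison used 9 of the 18 RNA-seq libraries of the series, chosen by their titles: 4 libraries of repeat peptide cells with DMSO and 5 of repeat peptide cells with ibrutinib at 1 µM. The cells were CD8+ T cells purified by negative selection from spleens of OT-1 mice, which the strain label gives as WT. The transgenic T cell receptor of these mice recognizes an ovalbumin peptide. The ages of the mice are not given in the sources used here. Peptide was given daily for 5 days, ibrutinib or DMSO was then present for 3 days with peptide still in the medium, and RNA was taken on day 8. The other 9 libraries were of cells that met the peptide once and were then rested, with DMSO in 5 and ibrutinib in 4; they entered the model and serve below only to set values beside those of repeat peptide cells. Each library was a culture of a purified, T cell population of a single specificity, so the values describe cells in a dish and not exhausted cells in a host.

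Each library has a genotype label, called its tag here. The tags INHB-1 left over, btk KO-6, BTK KO-1 and BTK KO-3 each occur both with DMSO and with ibrutinib. The fifth ibrutinib library has the tag btk KO-5, which no other library has. The strain label says WT for every library. The tag was taken as the name of an experiment, called A to E here in the order just given. This is an assumption, and it could not be checked against the Btk transcript, which was close to the limit of detection in every library. The study also used Btk deficient OT-I mice. Cells of such a mouse split over the treatments would carry the same tags, so the tags do not settle the genotype. Pairing by this tag gave 4 pairs (A to D). Ibrutinib library E had no DMSO partner, and it carried no weight in any paired fold change. Nothing beyond the tag says that the libraries came from separate mice, so p-values measure the spread between these libraries, which may be technical.

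Ibrutinib binds a cysteine in the active site of BTK, the kinase downstream of the B cell receptor, and the same cysteine is present in a small group of other kinases, among them the related kinases TXK and TEC, which are expressed in T cells. When a T cell meets its antigen over and over, the T cell receptor keeps calcium, ERK and NF-kB signalling active and immediate early transcription factors accumulate. Inhibitory receptors rise while cytokine production and memory potential fall, a state called exhaustion. A resting or memory T cell in contrast expresses receptors for lymph node entry and exit, interleukin receptors and quiescence factors.

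Library sizes ranged from 24174545 to 37951343 expected counts under DMSO (median 27850561) and from 23449518 to 51995372 under ibrutinib (median 25639602), a difference that did not pass (exact permutation test, two-sided, p = 0.96). Values below are normalized counts, that is counts scaled to a common library size, and are listed in the order A, B, C, D for DMSO and A, B, C, D, E for ibrutinib. All 10 markers of CD8+ T cells were present, with summed levels from 140099.6 to 166775 under DMSO and from 137733 to 172381 under ibrutinib. Cd4 did not exceed 2.43 in any library, and the B cell genes other than Ighm and Ighd summed to between 34.1 and 110.4, whereas Ighm transcripts were counted at 13464 to 21022 in every library. The summed markers of CD4 and regulatory T cells were 863 to 1206 under DMSO and 627 to 918 under ibrutinib, nearly all of it from Zbtb7b, and the number of genes with a count was 14744 to 16199 and 15965 to 17783 (exact permutation p = 0.0317 and 0.0476, each 0.31 after adjustment over the 13 measures compared). Library E was the only library with Lyz2 at 64.3 and S100a8 at 21.4, both myeloid genes near 0 elsewhere. Summed NK cell markers, mostly Klrb1c and Eomes, were 890.5 in DMSO B, 2007 in ibrutinib B and 1264 in ibrutinib E but 249 to 467 in the remaining libraries. The part of these markers in the results was not tested; results are therefore also given without single libraries where that changed them.

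With the experiment as a block, 1694 of the 12255 genes tested passed the threshold (13.8%), 1038 higher (8.47%) and 656 lower (5.35%) under ibrutinib. Because the libraries are bulk RNA, fewer cells that express a gene and less of its RNA per cell cannot be told apart, here or below. To pass, a gene needed an adjusted p under 0.05 together with a log2 fold change beyond 0.2 in either direction and a mean of 50 or more normalized counts over the 18 libraries. Without the block the same counts gave 726 genes (5.92%), 491 higher (4.01%) and 235 lower (1.92%), of which 713 in all were also found with it. The block therefore added 981 genes, 554 higher and 427 lower, and removed 13. These 981 genes moved less than the 713 found either way, with a median absolute log2 fold change of 0.42 against 0.71, and against 0.19 over all genes tested. The median standard error fell from 0.168 without the block to 0.122 with it.

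**Figure D1:**
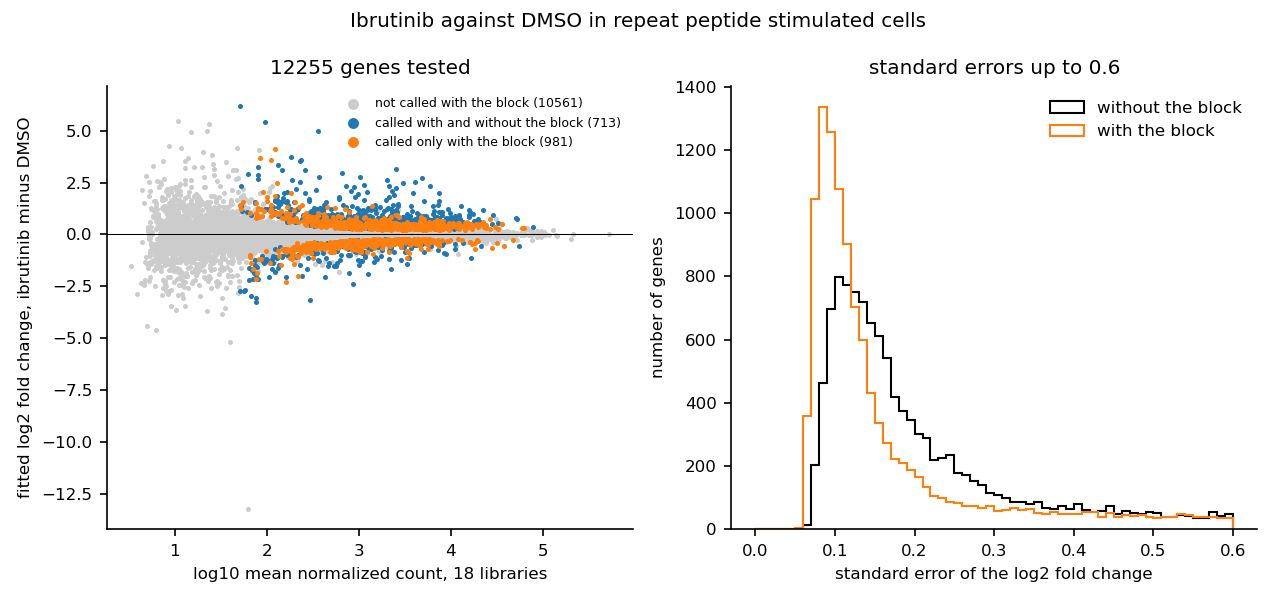
Left, fitted log2 fold change of each of the 12255 genes (y axis) against the log10 of its mean normalized count (x axis), with points coloured by whether the gene was called with and without the block, only with it, or not with it. The 981 genes called only with the block lie closer to 0 than the 713 called either way; on the right, the histogram of standard errors (x axis, in log2 units, up to 0.6; y axis, number of genes) is shifted to smaller values with the block, where the median was 0.122 against 0.168.

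Across all genes tested the log2 differences of any 2 pairs correlated with r from 0.385 to 0.522. This is a description over genes, which are not independent replicates. The pairwise difference had the same sign in all 4 pairs for 1646 of the 1694 genes called and for 4716 of all 12255 (38.5%). The called genes were selected in a fit of these same pairs, so a shared sign among them follows from the selection and is no separate support. The pairs differed in size, with a median absolute log2 difference over all genes of 0.28 in pair A, 0.33 in pair B, 0.17 in pair C and 0.21 in pair D. The number of genes called was 956 without ibrutinib A, 945 without ibrutinib B, 1195 without DMSO A and 1207 without DMSO D, but 1622 without DMSO B and 1957 without DMSO C. The genes that were lower depended on single libraries more than those that were higher, with 252 left without ibrutinib A, 265 without ibrutinib B, 387 without DMSO D and 399 without DMSO A, against 680 higher genes left without ibrutinib B. In all 9 fits that each left out 1 of the 9 libraries, 784 genes were called.

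Library E, which the paired contrast did not use, was above the highest DMSO library for 731 of the 1038 genes that rose (70.4%), compared with 44.9% of all genes with a fold change above 0, and below the lowest DMSO library for 538 of the 656 genes that fell (82%), compared with 51.9% of all genes with one below 0. The DMSO libraries are shared with the fit, so these shares have no test.

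Among genes called only with the block were a small set of T cell regulators with large differences between experiments. Foxp3 (ENSMUSG00000039521, chrX:7573644-7595245, plus strand), the transcription factor that defines regulatory T cells, was counted at 0, 6.91, 2.99 and 2.13 under DMSO and at 30.3, 76.2, 7.83, 29.0 and 19.0 under ibrutinib (log2 fold change 3.58 ± 0.52 SE, adjusted p = 2.56e-04). It was low in all 9 libraries and the groups did not overlap; the DMSO values correspond to at most 7 reads, so the size of the fold is poorly fixed. Foxp3 was not called when the repeat peptide libraries were fitted alone (adjusted p = 0.00289 but a mean count under 50) or by voom (adjusted p = 0.116), and its mean was 163 in single peptide cells with DMSO.

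Gpr15 (ENSMUSG00000047293, chr16:58717433-58719070, minus strand), a chemoattractant receptor of T cells that home to the gut, was counted at 30.2, 81.0, 10.5 and 76.8 under DMSO and at 104, 129.7, 33.6, 200.1 and 71.4 under ibrutinib (log2 fold change 1.31 ± 0.19 SE, adjusted p = 2.17e-04). Within every pair the ibrutinib library was the higher of the pair, whereas over the whole groups ibrutinib libraries C and E lay inside the range of the DMSO libraries. Pde5a (ENSMUSG00000053965, chr3:122728947-122859374, plus strand), a phosphodiesterase that hydrolyses cyclic GMP, was counted at 54.7, 75.0, 80.1 and 125 under DMSO and at 206, 151, 195, 255 and 78.5 under ibrutinib (log2 fold change 1.298 ± 0.18 SE, adjusted p = 1.63e-04), and only ibrutinib library E lay inside the range of the DMSO libraries. For St8sia1 (ENSMUSG00000030283, chr6:142821545-142964452, minus strand), the synthase of the ganglioside GD3, experiment B was the lowest of the 4 paired experiments in both treatments, at 389.7, 87.9, 257 and 221 under DMSO and at 786, 198, 500.2, 557 and 120.2 under ibrutinib (log2 fold change 1.10 ± 0.15 SE, adjusted p = 1.23e-04). Ibrutinib B and E thus lay below 3 of the 4 DMSO libraries, although St8sia1 rose in each of the 4 pairs. Neither Gpr15 nor St8sia1 was called by voom with the experiment as a random term, whose adjusted p was 0.248 for Gpr15 and 0.103 for St8sia1.

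The remaining genes of the 12 with the smallest p-values that rose only with the block were more abundant and changed less. Peli1, a ubiquitin ligase that restrains T cell activation, stood at 3962, 3929, 2959 and 2803 under DMSO and at 5858, 6777, 3788, 4119 and 6013 under ibrutinib (log2 fold change 0.57 ± 0.08 SE, adjusted p = 2.98e-04). Irgm2, an interferon inducible GTPase, stood at 1849, 1356, 1277 and 1463 under DMSO and at 3264, 2933, 1605, 2972 and 2080.3 under ibrutinib (log2 fold change 0.83 ± 0.13 SE, adjusted p = 3.90e-04), and ibrutinib library C lay inside the range of the DMSO libraries. An exon of Irgm2 overlaps one of its neighbour Igtp on the same strand, so that reads there may belong to either. Stk38, a kinase of the NDR family, rose in every pair (log2 fold change 0.64 ± 0.10 SE, adjusted p = 5.31e-04), as did Maml3, a Notch coactivator (log2 fold change 0.84 ± 0.13 SE, adjusted p = 5.20e-04), and Klf11, a Krüppel-like repressor (log2 fold change 0.68 ± 0.10 SE, adjusted p = 4.20e-04). Tha1, a threonine aldolase, and Fam214a rose with log2 fold changes of 0.88 ± 0.12 and 0.70 ± 0.09. Gm45713 rose by 0.65 ± 0.10, but its exons overlap those of Rpl13a and Flt3l, so its reads cannot be assigned with certainty.

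Among the 12 that fell, the largest differences were in Batf3, Cd81 and Dclk1. Batf3 (ENSMUSG00000026630, chr1:191097847-191108945, plus strand), an AP-1 family partner of JUN, was counted at 298, 378, 511 and 1124 under DMSO and at 43.7, 41.0, 125, 386 and 15.5 under ibrutinib (log2 fold change -2.31 ± 0.30 SE, adjusted p = 9.51e-05). The DMSO libraries differed widely among themselves and each was well above its own partner, while ibrutinib library D lay inside the range of the DMSO libraries. Cd81 (ENSMUSG00000037706, chr7:143052739-143067934, plus strand), a tetraspanin of the cell surface, was counted at 472, 355, 1086 and 892 under DMSO and at 75.2, 54.6, 453, 257 and 112 under ibrutinib (log2 fold change -2.02 ± 0.26 SE, adjusted p = 1.07e-04). Here too the low experiments A and B were low in both treatments, and ibrutinib library C lay inside the range of the DMSO libraries. Dclk1, a doublecortin-like kinase, was likewise lower in experiments A and B than in C and D in both treatments, at 121, 146, 410.3 and 372 under DMSO and at 21.8, 37.5, 157, 112 and 25.0 under ibrutinib (log2 fold change -1.85 ± 0.30 SE, adjusted p = 6.10e-04).

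Lat2 (ENSMUSG00000040751, chr5:134600022-134615025, minus strand), an adaptor related to LAT, was counted at 616, 1378, 719.5 and 649 under DMSO and at 209.8, 755, 358, 282 and 574 under ibrutinib (log2 fold change -1.15 ± 0.18 SE, adjusted p = 4.54e-04). DMSO B stood apart from the other DMSO libraries, and ibrutinib library B lay inside the range of the DMSO libraries. Cst3, the protease inhibitor cystatin C, was counted at 2918, 2841, 3921 and 5820.1 under DMSO and at 1665, 1714, 2323, 2906 and 3017 under ibrutinib (log2 fold change -0.83 ± 0.09 SE, adjusted p = 3.20e-05), and ibrutinib libraries D and E lay inside the range of the DMSO libraries. Ubash3b, a phosphatase that acts on T cell receptor kinases, fell (log2 fold change -0.60 ± 0.09 SE, adjusted p = 2.89e-04), as did Tnfrsf9, the costimulatory receptor 4-1BB (log2 fold change -1.14 ± 0.18 SE, adjusted p = 8.77e-04), Bcl2l1, which encodes the survival protein BCL-XL (log2 fold change -0.45 ± 0.07 SE, adjusted p = 7.59e-04), and Bsg, the chaperone of lactate transporters (log2 fold change -0.51 ± 0.09 SE, adjusted p = 0.00106). Fam162a, a mitochondrial protein induced by hypoxia, fell with a log2 fold change of -0.77 ± 0.11. The other 2 of the 12, Pgk1 and Pgam1, are glycolytic enzymes and are described with that pathway.

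**Figure D2:**
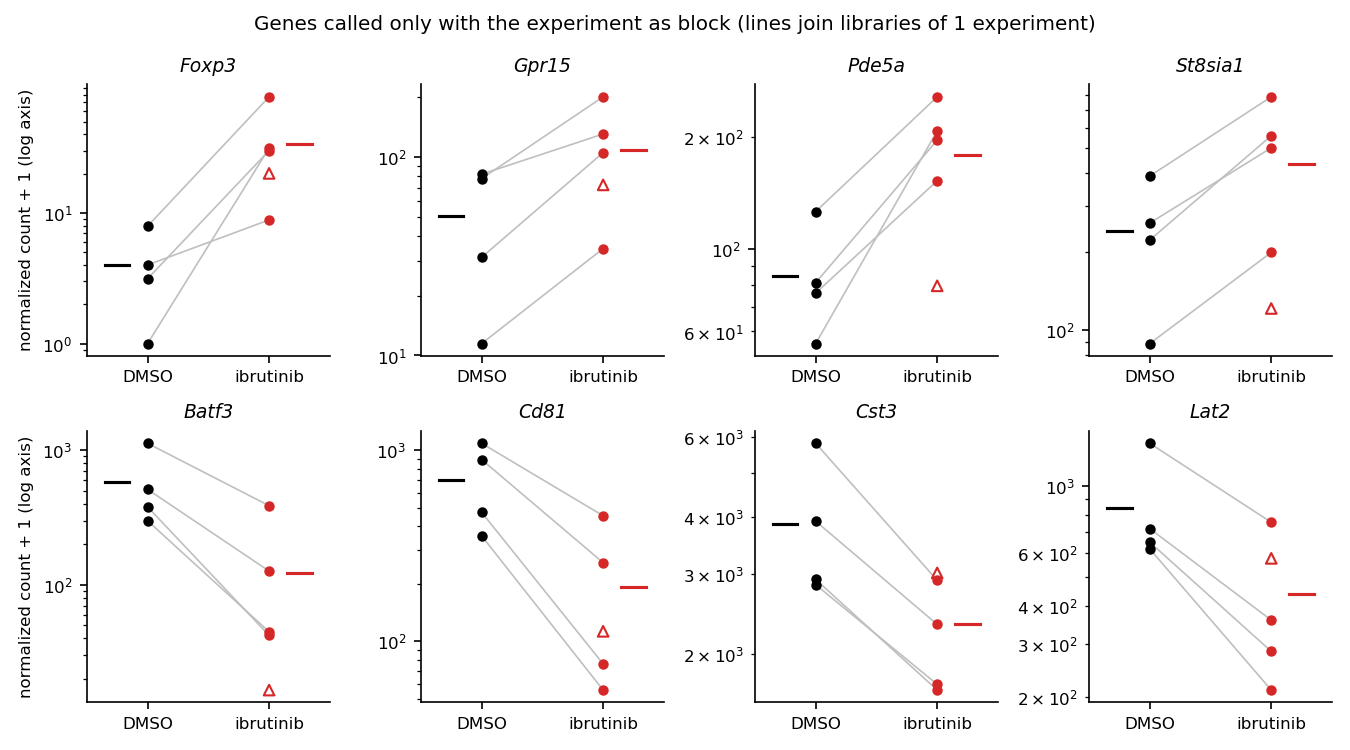
Normalized counts plus 1 (log axis) of 8 genes called only with the block, with lines joining the DMSO and ibrutinib libraries of the same experiment A to D and an open triangle for ibrutinib library E and short bars at the group means. The genes were chosen among those that moved the same way in every pair, so the agreement of the lines follows from the choice. Lines rise for Foxp3, Gpr15, Pde5a and St8sia1 and fall for Batf3, Cd81, Cst3 and Lat2. For all but Foxp3 the groups overlap.

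Of Btk, Tec and Txk, kinases of 1 family that carry the ibrutinib binding cysteine, Txk passed the test. Levels can be compared between genes only per transcript length, so they are given here in TPM, in the mean of each group. Tec was at 11.3 TPM under DMSO and 15.4 TPM under ibrutinib and Txk at 10.9 and 24.0 TPM, while Btk was at 0.288 and 0.128 TPM. Txk (ENSMUSG00000054892, chr5:72695978-72752777, minus strand) was counted at 527, 862, 502 and 334 under DMSO and at 1389.9, 1828, 958, 846 and 1486 under ibrutinib (log2 fold change 1.17 ± 0.15 SE, adjusted p = 1.07e-04). It rose in every pair, and ibrutinib library D lay inside the range of the DMSO libraries. Tec was higher in all 4 pairs but missed the threshold (log2 fold change 0.29 ± 0.11 SE, adjusted p = 0.0837). Btk was counted at 15.1, 9.87, 20.2 and 8.54 under DMSO and at 13.3, 2.28, 6.71, 3.90 and 0 under ibrutinib, too few for the test.

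Of 31 genes of T cell receptor proximal signalling, 10 rose (32.3%) and 4 fell (12.9%), beside 8.47% and 5.35% of all genes tested. The list counts below are to be read beside the same shares of all genes tested. The median log2 fold change of the list was 0.12, beside -0.01 over all genes tested. The rising count was 5 without the block. Grap2, the adaptor GADS that links LAT to SLP-76, stood at 4197, 3994, 3500.3 and 4201 under DMSO and at 7335, 8309.7, 5016, 6807 and 5579 under ibrutinib (log2 fold change 0.77 ± 0.09 SE, adjusted p = 3.40e-05). Sla, an adaptor that promotes turnover of the T cell receptor, stood at 11324, 11353, 12537 and 10191 under DMSO and at 5888, 6576, 7624, 6579.8 and 6184 under ibrutinib (log2 fold change -0.77 ± 0.08 SE, adjusted p = 2.68e-05). For Grap2 and Sla the groups did not overlap, which was so for 10.1% of all genes tested. Called genes were named by their p-value in a fit of these libraries, so separation of the groups follows in part from that choice. Statements below that groups did not overlap are to be read beside this share and are no separate support. Sh2d2a, a T cell adaptor that binds LCK, fell (log2 fold change -0.44 ± 0.07 SE, adjusted p = 7.44e-04) with groups that did not overlap, and Ubash3b fell as given above. The list thus held movement both ways, and 17 of its 31 members passed in neither direction.

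Immediate early and receptor induced transcription factors moved mostly down, with 9 of 28 lower, 1 higher and a list median of -0.29, which was -0.17 without DMSO D and -0.10 without the block. Nr4a3 (ENSMUSG00000028341, chr4:48045153-48086447, plus strand), an orphan nuclear receptor induced by T cell receptor signals, was counted at 2564, 1763, 3110.3 and 3428 under DMSO and at 934, 857, 1544, 1219.7 and 877 under ibrutinib (log2 fold change -1.25 ± 0.16 SE, adjusted p = 9.76e-05). Its relative Nr4a2 stood at 2088, 2241, 2504 and 2220.0 under DMSO and at 1121, 1347, 1627, 1164 and 1053 under ibrutinib (log2 fold change -0.80 ± 0.11 SE, adjusted p = 2.12e-04). For Nr4a2 and Nr4a3 every ibrutinib library, E included, lay below every DMSO library. Bhlhe40, a repressor induced on activation, fell furthest (log2 fold change -1.43 ± 0.20 SE, adjusted p = 4.59e-04) and ranged from 5704 to 12531 under DMSO and from 2119.6 to 4423 under ibrutinib. Irf8, an interferon regulatory factor induced by the T cell receptor in CD8+ cells, fell (log2 fold change -1.09 ± 0.17 SE, adjusted p = 7.06e-04) and ranged from 3177 to 4542 under DMSO and from 1364 to 2230.1 under ibrutinib. Jun was the exception. This AP-1 subunit was counted at 998, 897, 1900.3 and 1128 under DMSO and at 3700.4, 3077, 2669.8, 2521 and 3459.7 under ibrutinib (log2 fold change 1.37 ± 0.22 SE, adjusted p = 0.00106), so that every ibrutinib library was above every DMSO library.

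Among 25 tested brakes of Ras, ERK and cytokine signalling, 3 rose and 6 fell (list median -0.18), and the count of 6 became 3 without ibrutinib A or B or without the block. Those that rose were Rasa3, a GTPase activating protein for Ras and Rap, at 5199, 7801, 5495 and 4510.5 under DMSO and at 16508, 15498, 10705, 9917 and 14289 under ibrutinib (log2 fold change 1.19 ± 0.12 SE, adjusted p = 1.04e-05), Socs3, the inhibitor of IL-6 type cytokine receptors, with log2 fold change 1.25 ± 0.16, and Dgka, a diacylglycerol kinase, with 0.52 ± 0.07. Those that fell were led by Dusp5, a phosphatase of nuclear ERK, at 3894, 3088, 3919 and 2619 under DMSO and at 1327, 1771, 1993, 1519 and 1419.8 under ibrutinib (log2 fold change -1.04 ± 0.12 SE, adjusted p = 5.97e-05). Spry2, an inhibitor of Ras-ERK signalling, fell (log2 fold change -0.99 ± 0.17 SE, adjusted p = 0.00137). For each of these 5 genes the groups did not overlap.

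Of 22 costimulatory receptors and ligands, 5 rose and 4 fell, the rising count being 2 without the block and 3 without ibrutinib B and the falling count 2 without the block and 7 by voom. Cd80, a ligand of CD28 and CTLA-4, was counted at 1459.7, 1312, 1897 and 2091 under DMSO and at 736, 751, 1003, 919.8 and 540.3 under ibrutinib (log2 fold change -0.98 ± 0.12 SE, adjusted p = 8.70e-05). Icos fell more modestly (log2 fold change -0.50 ± 0.10 SE, adjusted p = 0.00348), and Tnfrsf9 fell as given above. Tnfrsf14, the receptor HVEM, rose (log2 fold change 0.69 ± 0.13 SE, adjusted p = 0.00224), and Tnfsf8, the ligand of CD30, rose by 0.39 ± 0.08 on the log2 scale. Of 16 tested inhibitory receptors and ectoenzymes outside the main exhaustion receptors, 5 rose and 3 fell, the rising count being 3 without the block and the falling count 1 without DMSO A or D or ibrutinib A or without the block. Nt5e, the ectoenzyme CD73 that makes adenosine, was counted at 1623, 2378, 1758 and 1009 under DMSO and at 3202, 4208, 2763, 2030.3 and 4666 under ibrutinib (log2 fold change 0.86 ± 0.11 SE, adjusted p = 9.69e-05), and ibrutinib library D lay inside the range of the DMSO libraries. Vsir, which encodes the checkpoint protein VISTA, rose from between 3079 and 4390 to between 4898 and 7498 (log2 fold change 0.69 ± 0.10 SE, adjusted p = 2.67e-04). Sit1, an adaptor that dampens receptor signals, also rose (log2 fold change 0.65 ± 0.13 SE, adjusted p = 0.00254). Cd200, an inhibitory ligand, fell (log2 fold change -0.90 ± 0.15 SE, adjusted p = 0.00102). Inhibitory genes therefore moved in both directions.

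Of the cytokine and chemokine genes, 16 of 26 passed the low count filter, 3 of them rose and 4 fell, the falling count being 1 without DMSO D and 2 without ibrutinib B. Csf1 (ENSMUSG00000014599, chr3:107741048-107760469, minus strand), the macrophage growth factor, was counted at 2236, 2578, 2752 and 3011 under DMSO and at 389, 956, 921, 869 and 383 under ibrutinib (log2 fold change -1.84 ± 0.20 SE, adjusted p = 4.79e-05). Every ibrutinib library held less than 1000 normalized counts and every DMSO library more than 2000. Ltb, lymphotoxin beta, rose (log2 fold change 1.01 ± 0.15 SE, adjusted p = 2.84e-04), and Il16, a chemoattractant for CD4 bearing cells, rose (log2 fold change 0.38 ± 0.08 SE, adjusted p = 0.00402). Ifng was counted at 429, 530.2, 892 and 1174 under DMSO and at 95.8, 162, 205, 273 and 361 under ibrutinib (log2 fold change -1.999 ± 0.46 SE, adjusted p = 0.0125), and although the groups did not overlap the adjusted p was 0.0523 without DMSO library B and 0.0558 without DMSO library D.

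Among 25 tested genes of granzymes and the granule machinery, 7 fell and 1 rose, the falling count being 4 without DMSO D or without the block and the rising count 2 without DMSO C or D or by voom or by DESeq2 or with no low count filter and 3 without DMSO B or without experiment B. Gzmb, granzyme B, was counted at 30573, 31376, 47249.8 and 60861 under DMSO and at 13529, 15935, 21951, 26882 and 19679 under ibrutinib (log2 fold change -1.12 ± 0.20 SE, adjusted p = 0.00254). Gzmc, granzyme C, fell further, at 5228, 5847, 7444 and 10626 under DMSO and at 859.9, 2483, 2337, 4246 and 1267 under ibrutinib (log2 fold change -1.69 ± 0.20 SE, adjusted p = 9.51e-05), but the granzyme C to G genes are close copies whose reads the counting could divide differently. Prf1, the pore forming protein perforin, fell from between 1419 and 3307 to between 569 and 1128 (log2 fold change -1.47 ± 0.21 SE, adjusted p = 4.00e-04). Crtam, an adhesion receptor of activated CD8+ T cells, rose (log2 fold change 0.65 ± 0.14 SE, adjusted p = 0.00472). In each of these 4 genes the groups did not overlap.

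Genes of lymph node homing, egress and tissue migration, taken as 1 list, rose. Of 26 tested, 11 were higher and 2 lower (the falling count being 1 without the block), with a list median of 0.62, above that of any other list tested here. S1pr1 (ENSMUSG00000045092, chr3:115710433-115715072, minus strand), the receptor that lets T cells leave lymphoid tissue, was counted at 742, 1227, 669 and 435 under DMSO and at 4165, 3615, 2377, 2171 and 3782 under ibrutinib (log2 fold change 2.02 ± 0.23 SE, adjusted p = 1.20e-04). The lowest ibrutinib library was above the highest DMSO library. Klf3, a Krüppel-like factor, stood at 227, 366, 244 and 154 under DMSO and at 1412, 1198, 732, 522 and 972 under ibrutinib (log2 fold change 1.91 ± 0.18 SE, adjusted p = 1.27e-05). Itgb7, the integrin beta chain of the gut homing receptor, stood at 7966, 10162, 8828 and 6564 under DMSO and at 24356, 16672, 17496, 16696 and 18336 under ibrutinib (log2 fold change 1.17 ± 0.13 SE, adjusted p = 2.68e-05). S1pr4, a second lymphocyte receptor for sphingosine 1-phosphate, rose less (log2 fold change 0.75 ± 0.10 SE, adjusted p = 9.51e-05). Cd44, the hyaluronan receptor that marks antigen experienced T cells, fell (log2 fold change -0.80 ± 0.11 SE, adjusted p = 1.32e-04). Among 5 of these genes named, Cd44 was the only one whose groups overlapped.

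Cytokine receptors were the list with the second largest number of rising members, 16 of 32 higher and 3 lower, the rising count being 7 without the block and 10 without ibrutinib B. Il6ra (ENSMUSG00000027947, chr3:89864059-89913196, minus strand), the IL-6 binding chain, was counted at 79.1, 167, 133 and 84.3 under DMSO and at 991, 786, 449, 440.4 and 770.0 under ibrutinib (log2 fold change 2.48 ± 0.27 SE, adjusted p = 9.51e-05). It was the largest difference among the genes named here outside Foxp3. Il4ra stood at 4978, 4798, 4941 and 4655 under DMSO and at 9657, 8902, 7369, 7828 and 7457 under ibrutinib (log2 fold change 0.79 ± 0.09 SE, adjusted p = 2.68e-05). Il27ra rose (log2 fold change 0.82 ± 0.08 SE, adjusted p = 8.95e-06), and Il10ra rose (log2 fold change 0.76 ± 0.10 SE, adjusted p = 9.51e-05). Il2rb, the signalling chain shared by IL-2 and IL-15, to which these cells were exposed in culture, fell from between 34656 and 41017 to between 17878 and 26805 (log2 fold change -0.56 ± 0.08 SE, adjusted p = 1.76e-04). For all 5 receptors the groups did not overlap.

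Of 30 memory and effector transcription factors tested, 5 rose (16.7%) and 1 fell (3.33%). The falling share was below the 5.35% of all genes tested. The rising count was 3 without experiment B and the falling count 3 in the repeat peptide libraries alone. Bcl11b, needed for T cell identity, stood at 2489, 2325, 2097 and 2152 under DMSO and at 4706, 4634, 2806, 3372 and 3068 under ibrutinib (log2 fold change 0.75 ± 0.09 SE, adjusted p = 6.78e-05). Lef1, a partner of TCF1 in memory T cells, rose (log2 fold change 0.70 ± 0.11 SE, adjusted p = 4.31e-04), and Foxo1, a regulator of homing and quiescence genes, rose (log2 fold change 0.53 ± 0.09 SE, adjusted p = 0.00101). Rora rose (log2 fold change 0.73 ± 0.17 SE, adjusted p = 0.00806), with ibrutinib B at 620.0 apart from the other ibrutinib libraries and a log2 fold change of 0.47 without experiment B. Prdm1, which encodes the effector regulator BLIMP1, was counted at 309, 328, 349.7 and 416 under DMSO and at 115, 228, 76.1, 129.9 and 70.2 under ibrutinib (log2 fold change -1.49 ± 0.25 SE, adjusted p = 7.47e-04). None of these 5 overlapped between groups.

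In the TGF-beta, Notch and WNT pathways 8 of 23 tested genes rose and 1 fell (the rising count being 3 without the block and 5 without experiment B and the falling count 2 without ibrutinib B or without experiment B). Smad3 (ENSMUSG00000032402, chr9:63646767-63757994, minus strand), which carries TGF-beta signals to the nucleus, was counted at 123, 129, 56.2 and 82.2 under DMSO and at 701, 769, 311, 316 and 424 under ibrutinib (log2 fold change 2.39 ± 0.23 SE, adjusted p = 2.46e-05). Its partner Smad4 rose much less (log2 fold change 0.38 ± 0.07 SE, adjusted p = 0.00188). Rbpj, the DNA binding partner of Notch, fell (log2 fold change -0.85 ± 0.12 SE, adjusted p = 2.01e-04), whereas the receptor Notch2 rose (log2 fold change 0.62 ± 0.11 SE, adjusted p = 0.00104), as did Axin2, a target of WNT signalling (log2 fold change 0.97 ± 0.19 SE, adjusted p = 0.00312). Smad3 and Rbpj did not overlap between groups, while each of Notch2, Smad4 and Axin2 had at least 1 ibrutinib library inside the DMSO range.

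**Figure D3:**
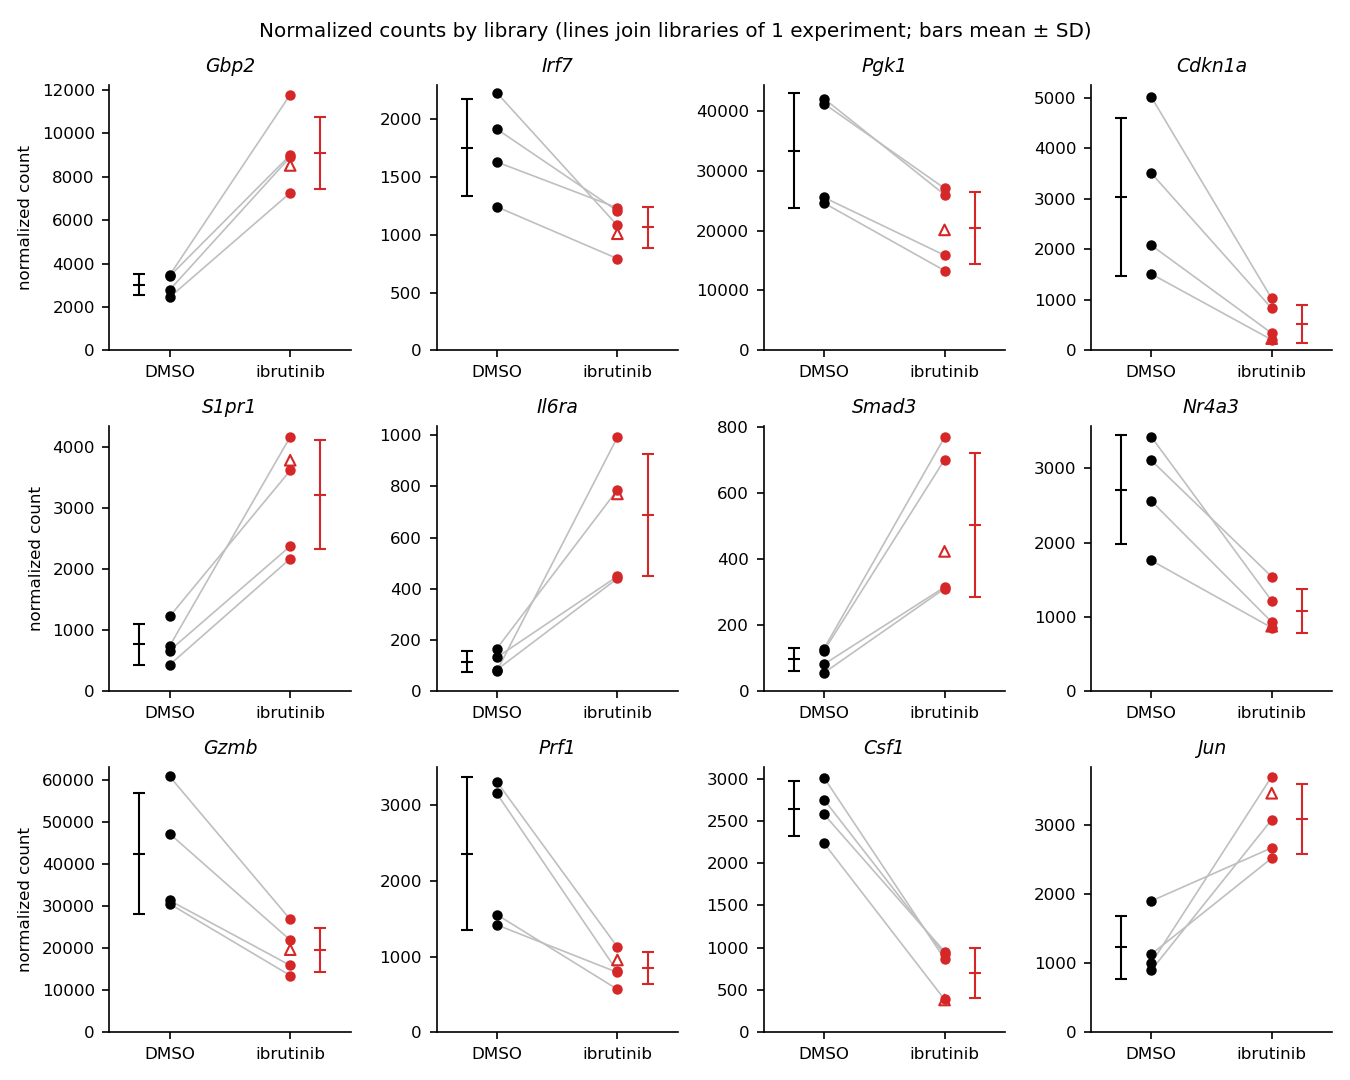
Normalized counts of 12 genes in the 4 DMSO and 5 ibrutinib libraries, with lines joining libraries of the same experiment, an open triangle for ibrutinib library E and the mean ± SD of each group beside its points. Gbp2, S1pr1, Il6ra, Smad3 and Jun are higher and Irf7, Pgk1, Cdkn1a, Nr4a3, Gzmb, Prf1 and Csf1 lower under ibrutinib, and the groups overlap in Pgk1 alone.

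Interferon stimulated genes divided into those that rose and those that fell. Interferons act through STAT factors on promoters, and type I and type II interferon induce overlapping but distinct sets: the guanylate binding proteins, the immunity related GTPases and MHC class I genes respond to both and strongly to type II, whereas the classical antiviral genes respond chiefly to type I. Of 31 genes of the first kind 21 rose and 0 fell by edgeR (0 at an unadjusted p under 0.05, 0 by DESeq2 and 0 by voom). Only 2 members had a fold change below 0, and the list median was 0.45. The count of 21 was 11 without the block and 14 without ibrutinib B. Of 45 tested antiviral genes 5 rose and 10 fell, with a list median of -0.21. Here the falling count was 5 without ibrutinib A or without the block and 6 without DMSO C or ibrutinib B, the rising count 2 without the block and 3 without ibrutinib B, and the median was -0.06 without DMSO C.

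Promoters of both lists were searched for a sequence known from such genes. The table of RefSeq promoters (GRCm38.p6, 250 bases before each start site searched) was scanned for GAAANNGAAA and its reverse complement TTTCNNTTTC, the core of the element bound by interferon regulatory factors. A match was present in 936 of 27025 promoters (3.46%) and in 310 of the 9529 promoters of genes tested (3.25%). It was present in 11 of the 24 GTPase and MHC genes with an entry (45.8%) and in 12 of the 34 antiviral genes with an entry (35.3%). By direction, 10 of 16 GTPase and MHC genes that rose held it, as did 1 of 4 antiviral genes that rose and 4 of 6 that fell. Below are 80 bases of the promoters of 2 GTPase genes that rose and of 3 antiviral genes, of which Ifit1bl1 rose and Isg15 and Oas1a fell, each 5′ to 3′ on the strand of the gene and with matches in capitals. Isg15 and Oas1a were chosen for display after their values were seen.
Igtp (chr11:58199476-58199555, plus strand): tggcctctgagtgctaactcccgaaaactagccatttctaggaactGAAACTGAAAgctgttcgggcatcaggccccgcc
Tgtp2 (chr11:49064238-49064317, minus strand): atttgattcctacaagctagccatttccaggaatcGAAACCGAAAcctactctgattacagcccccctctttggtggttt
Ifit1bl1 (chr19:34602028-34602107, minus strand): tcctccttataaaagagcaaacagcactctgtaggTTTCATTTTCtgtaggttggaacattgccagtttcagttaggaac
Isg15 (chr4:156200846-156200925, minus strand): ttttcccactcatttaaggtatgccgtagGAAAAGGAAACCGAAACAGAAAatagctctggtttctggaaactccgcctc
Oas1a (chr5:120907526-120907605, minus strand): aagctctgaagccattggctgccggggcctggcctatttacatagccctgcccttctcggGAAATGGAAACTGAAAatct
The stretch of Isg15 holds 3 overlapping matches and that of Oas1a 2, whereas the other 3 hold 1 each. A match is a string of letters and not a measured binding site.

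Gbp2 (ENSMUSG00000028270, chr3:142620602-142638008, plus strand), a guanylate binding protein that attacks the vacuoles of intracellular microbes, was counted at 2786, 2445, 3417 and 3463 under DMSO and at 8906, 7256, 8997, 11779.8 and 8519 under ibrutinib (log2 fold change 1.61 ± 0.13 SE, adjusted p = 4.21e-06). It had the smallest p-value of the list, and the lowest ibrutinib library held more than 2 times the normalized count of the highest DMSO library. Igtp (ENSMUSG00000078853, chr11:58199556-58207591, plus strand), an immunity related GTPase also called Irgm3, stood at 6154, 4880.0, 6335 and 6555 under DMSO and at 11846, 10011, 9542, 13357 and 9053 under ibrutinib (log2 fold change 0.90 ± 0.11 SE, adjusted p = 5.97e-05). Tgtp2 (ENSMUSG00000078921, chr11:49057194-49064206, minus strand) stood at 3182, 2317, 3023 and 2879 under DMSO and at 5277, 4827, 4843, 6175 and 5772 under ibrutinib (log2 fold change 0.89 ± 0.09 SE, adjusted p = 1.56e-05). Its close copy Tgtp1 rose (log2 fold change 1.05 ± 0.12 SE, adjusted p = 3.84e-05), and reads of these 2 genes may have been divided between them. Ifi47, another GTPase of this family, rose (log2 fold change 0.74 ± 0.09 SE, adjusted p = 6.04e-05). All 5 rose in every pair without overlap between the groups.

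Among antiviral genes the directions differed. Ifit1bl1 (ENSMUSG00000079339, chr19:34592891-34601956, minus strand), a member of the IFIT family with close copies, was counted at 600.2, 315, 493 and 411 under DMSO and at 1112, 733, 1025, 1530.2 and 1639 under ibrutinib (log2 fold change 1.28 ± 0.15 SE, adjusted p = 4.22e-05). Parp12, a mono-ADP-ribosyltransferase, also rose (log2 fold change 0.94 ± 0.19 SE, adjusted p = 0.00393). Irf7 (ENSMUSG00000025498, chr7:141262706-141266481, minus strand), the factor that amplifies type I interferon production, was counted at 1915, 1242, 2228 and 1629.8 under DMSO and at 1207, 794, 1081, 1233 and 1009 under ibrutinib (log2 fold change -0.70 ± 0.12 SE, adjusted p = 0.00102). For these 3 genes the groups did not overlap, so within the antiviral list every ibrutinib library lay above the DMSO libraries for Ifit1bl1 and Parp12 and below them for Irf7. Ifi27l2a, a mitochondrial protein induced by type I interferon, fell (log2 fold change -0.89 ± 0.15 SE, adjusted p = 0.00126), and so did Dhx58, the RNA sensor LGP2 (log2 fold change -0.55 ± 0.12 SE, adjusted p = 0.00674).

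Isg15, a ubiquitin-like modifier, was counted at 352, 132, 386 and 387 under DMSO and at 184, 79.6, 219, 307 and 168 under ibrutinib (log2 fold change -0.71 ± 0.21 SE, adjusted p = 0.0299). Oas1a, which synthesizes oligoadenylate, stood at 216, 111, 359 and 279 under DMSO and at 92.2, 80.8, 151, 140.5 and 84.5 under ibrutinib (log2 fold change -1.03 ± 0.26 SE, adjusted p = 0.0147). Both fell in all 4 pairs, and both had ibrutinib libraries inside the DMSO range. The call of Isg15 was lost in 6 of the 9 fits with a library left out, with adjusted p of 0.112 without DMSO library A, 0.0814 without DMSO library C, 0.0925 without ibrutinib library A, 0.11 without ibrutinib library B, 0.059 without ibrutinib library C and 0.053 without ibrutinib library D, and that of Oas1a in 3, with 0.0667 without DMSO library C, 0.0574 without ibrutinib library A and 0.0531 without ibrutinib library B. Isg15 was also not called by voom (adjusted p = 0.0911).

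**Figure D4:**
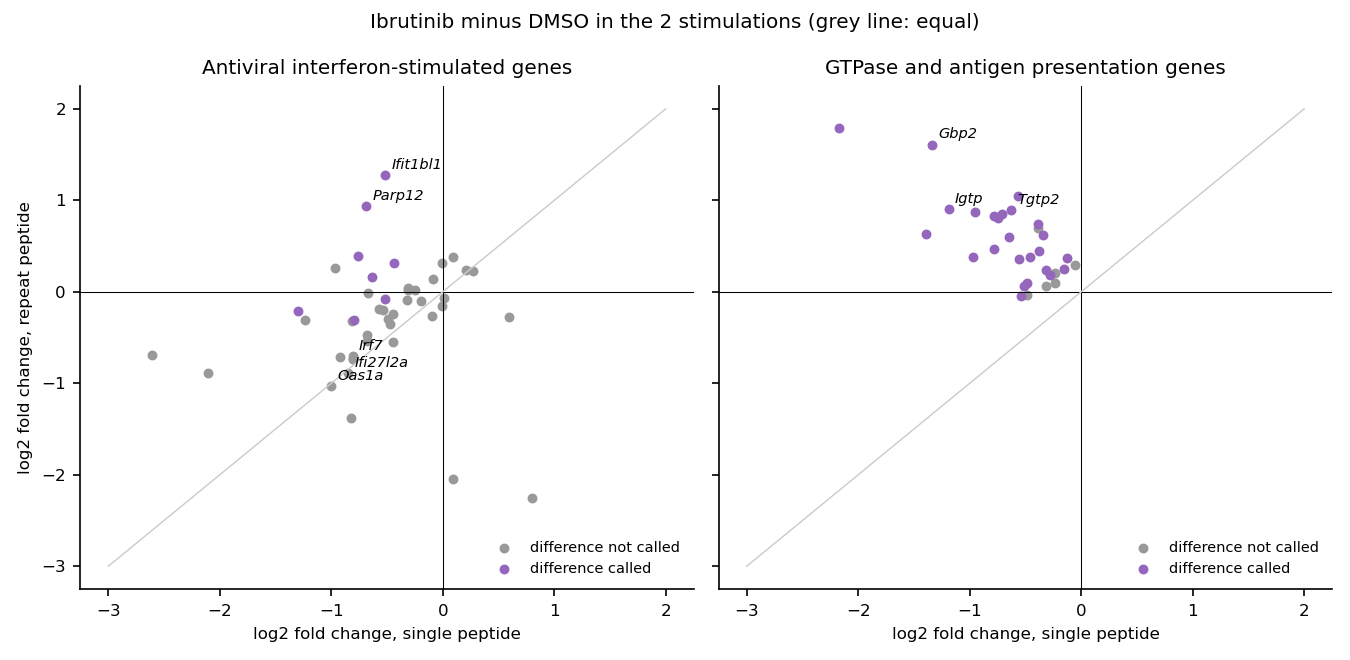
Log2 fold changes (ibrutinib over DMSO, experiment as a block) of the tested genes of both interferon lists in repeat peptide cells (y axis) against those in single peptide cells (x axis). The GTPase and MHC genes lie above 0 in repeat peptide cells for all but 2 members and mostly below 0 in single peptide cells, where their median was -0.51; the antiviral genes lie mostly below 0 in both, with medians of -0.21 and -0.52.

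Glycolytic and hypoxia response genes were lower. Of 32 tested, 13 fell and 0 rose by edgeR (1 at an unadjusted p under 0.05, 0 by DESeq2 and 0 by voom), and 31 had a fold change below 0 (list median -0.42). The falling count was 5 without the block, 7 without DMSO D, 8 without ibrutinib A or B and 20 without DMSO B. With a library left out the rising count reached 1, as without DMSO C. Pgk1 (ENSMUSG00000062070, chrX:106187100-106203699, plus strand), which makes ATP in glycolysis, was counted at 25514, 24584, 41157 and 42003 under DMSO and at 15874, 13314, 27037, 25973 and 20102 under ibrutinib (log2 fold change -0.71 ± 0.11 SE, adjusted p = 4.47e-04). The DMSO libraries of experiments C and D held far more than those of A and B, so that ibrutinib libraries C and D lay inside the range of the DMSO libraries although each pair fell by a similar amount, from -0.61 to -0.88 on the log2 scale. Pgam1 (ENSMUSG00000011752, chr19:41911923-41918660, plus strand), the next enzyme of the pathway, was counted at 10679, 8375, 13632 and 14885 under DMSO and at 6895, 5497, 9906, 9772 and 7018 under ibrutinib (log2 fold change -0.58 ± 0.10 SE, adjusted p = 7.44e-04).

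Tpi1 fell most of the 5 enzymes named (log2 fold change -0.93 ± 0.17 SE, adjusted p = 0.00289), followed by Pgk1, Ldha, which converts pyruvate to lactate (log2 fold change -0.67 ± 0.12 SE, adjusted p = 0.00133), Pgam1 and Gapdh (log2 fold change -0.57 ± 0.10 SE, adjusted p = 0.00152). Ldha and Gapdh were among the most abundant transcripts, with Gapdh at 69486 to 106040 under DMSO and 47611 to 73756 under ibrutinib. In all 5 enzymes some ibrutinib libraries lay inside the DMSO range. Promoters of this list often held ACGTG or its reverse complement CACGT, the core of the element bound by hypoxia inducible factors, which is also part of the E-box CACGTG. A match stood in 17 of 29 entries (58.6%), and in 9 of the 13 genes that fell (69.2%), against 25.4% of promoters of genes tested and 18.5% of all 27025. The promoters of Pgk1 and Pgam1, which were among the enzymes called only with the block, are shown, 80 bases each, with matches in capitals.
Pgk1 (chrX:106186922-106187001, plus strand): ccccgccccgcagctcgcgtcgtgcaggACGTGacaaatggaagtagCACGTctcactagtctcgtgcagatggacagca
Pgam1 (chr19:41911719-41911798, plus strand): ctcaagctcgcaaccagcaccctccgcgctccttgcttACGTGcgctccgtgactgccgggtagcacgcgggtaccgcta
Pgk1 has 2 matches in this stretch, in opposite orientation, and Pgam1 has 1. Gapdh and Tpi1 had no match in the window searched.

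Of 35 tested sterol and fatty acid synthesis genes, 7 fell and 1 rose (list median -0.45, 31 of 35 below 0). The number that fell was 0 without the block, 2 without ibrutinib B, 3 without DMSO A or ibrutinib A, 4 without DMSO D, 11 by DESeq2, 12 without ibrutinib D, 14 without experiment B, 17 by voom and 20 in the repeat peptide libraries alone. The number that rose was 0 without ibrutinib A or without the block or with no low count filter. Dhcr7, the last enzyme of cholesterol synthesis, fell (log2 fold change -0.45 ± 0.09 SE, adjusted p = 0.00437), and Fdft1, squalene synthase, fell (log2 fold change -0.60 ± 0.13 SE, adjusted p = 0.00448). Of 22 tested nutrient transporters, 3 rose and 6 fell, but the falling count was 0 without DMSO D, 1 without ibrutinib A, 2 without DMSO A or C or ibrutinib B or D or with no low count filter and 3 without ibrutinib C or without the block, and the rising count 1 without the block. Tfrc, the transferrin receptor, was counted at 21690.3, 13592, 22252 and 22688 under DMSO and at 10657, 8572, 14647, 15449.6 and 9278 under ibrutinib (log2 fold change -0.70 ± 0.16 SE, adjusted p = 0.00901), with an adjusted p of 0.0538 without DMSO library D, 0.0582 without ibrutinib library A and 0.0522 without ibrutinib library B. The metal ion transporter Slc11a2 rose (log2 fold change 0.54 ± 0.09 SE, adjusted p = 0.00102), as did the amino acid transporter Slc43a1 (log2 fold change 0.82 ± 0.16 SE, adjusted p = 0.00238). For the nuclear encoded respiratory chain, 2 of 34 genes fell (5.88%), close to the 5.35% of all genes tested. Still, 33 of the 34 had a fold change below 0, and the list median was -0.16, beside -0.01 over all genes tested. That median was -0.04 without experiment B and 0.01 without the block. In this list 0 rose by edgeR (0 at an unadjusted p under 0.05, 0 by DESeq2 and 0 by voom). The falling count was 0 without DMSO A or B or ibrutinib A or B or C or without the block or without experiment B, 1 without ibrutinib D or in the repeat peptide libraries alone or with no low count filter or with all gene types, 4 by DESeq2 and 7 without DMSO C. Cox5a was 1 of those 2 (log2 fold change -0.34 ± 0.10 SE, adjusted p = 0.035), but its adjusted p was 0.111 without DMSO library A, 0.137 without DMSO library B, 0.156 without ibrutinib library A, 0.159 without ibrutinib library B and 0.0537 without ibrutinib library C, its log2 fold change was -0.22 without DMSO B, and it was not called in the fit of the repeat peptide libraries alone.

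**Figure D5:**
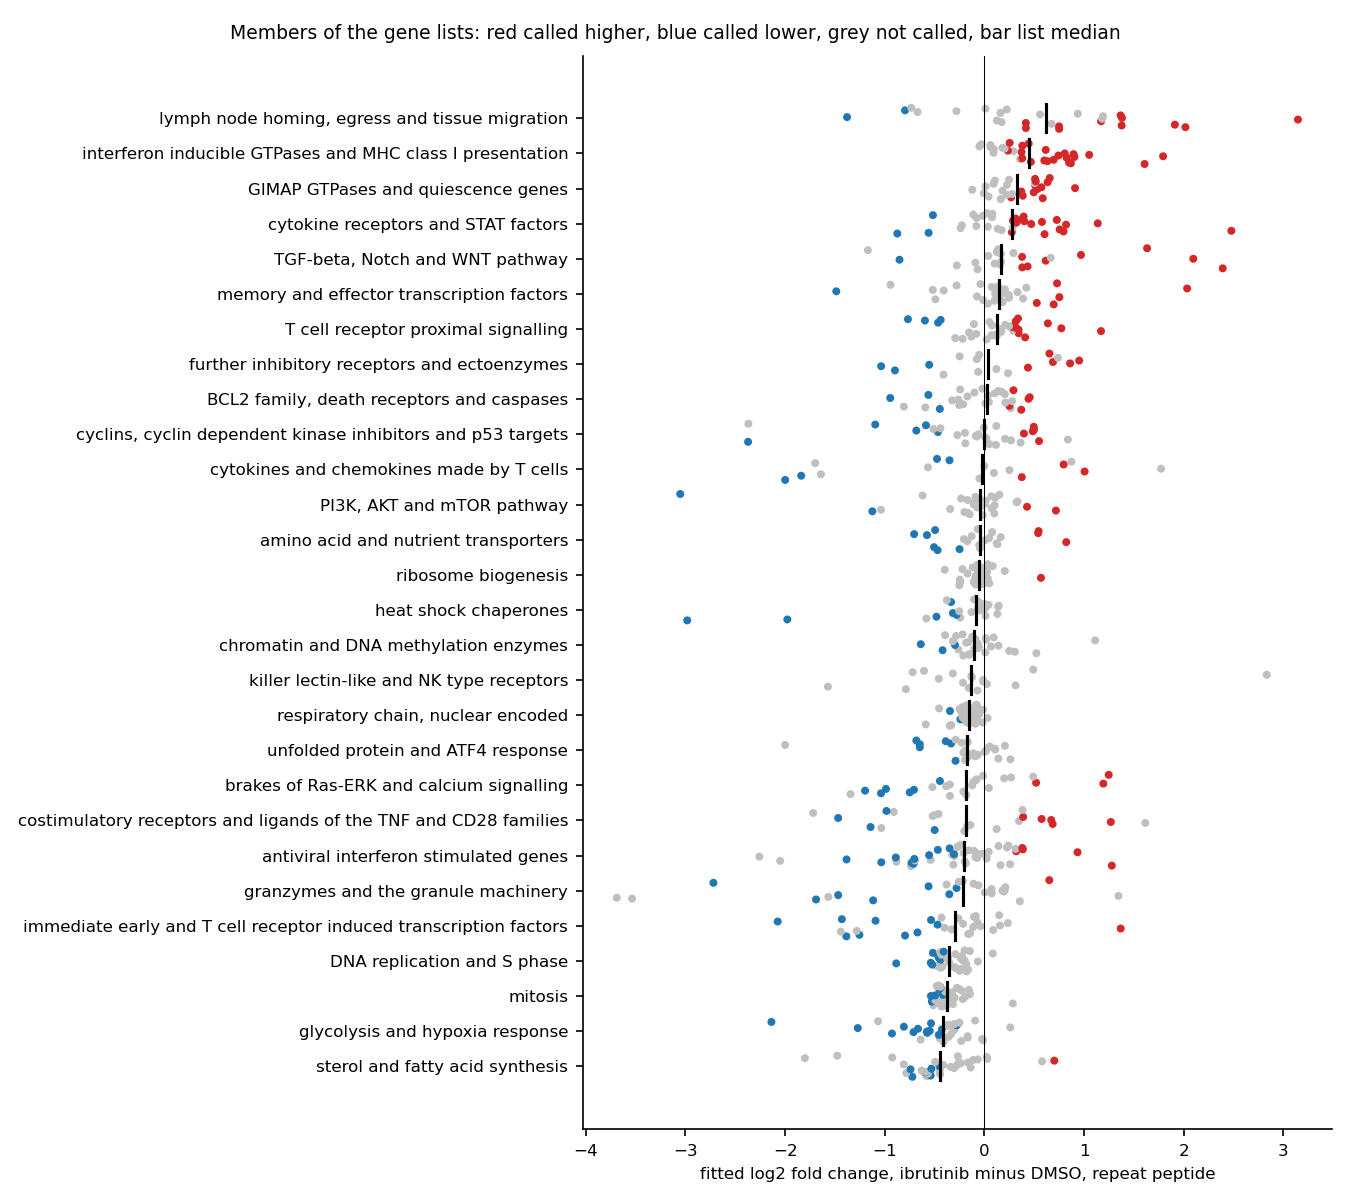
Fitted log2 fold change (x axis) of the tested members of each of the 28 gene lists (rows), coloured red where called higher, blue where called lower and grey where not called, with a black bar at the list median. Homing genes have the highest median at 0.62 and the GTPase and MHC list the next at 0.45, while sterol, glycolysis and cell cycle lists have the lowest, between -0.35 and -0.45; over all genes tested the median was -0.01.

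Cell cycle genes leaned lower, although few passed. Of 35 genes of DNA replication, 9 fell and 0 rose by edgeR (0 at an unadjusted p under 0.05, 0 by DESeq2 and 0 by voom), 34 had a fold change below 0 and the median was -0.35, but the falling count was 0 without ibrutinib B or without experiment B, 1 without ibrutinib A or without the block, 2 without DMSO A or B, 4 without ibrutinib C and 15 without DMSO C. Of 35 mitosis genes, 6 fell and 0 rose by edgeR (1 at an unadjusted p under 0.05, 0 by DESeq2 and 0 by voom), 34 were below 0 and the median was -0.38, with a falling count of 1 without DMSO B or ibrutinib B or C or without the block or without experiment B, 2 without DMSO A or ibrutinib A or with no low count filter, 3 without DMSO D or ibrutinib D, 12 without DMSO C and 13 in the repeat peptide libraries alone. 1 mitosis gene rose with no low count filter, without DMSO B or without experiment B. The medians were -0.20 and -0.19 without DMSO B and -0.19 and -0.22 without experiment B. Cenpa, the centromeric histone variant, fell (log2 fold change -0.49 ± 0.11 SE, adjusted p = 0.0061) and was called in all 9 fits without 1 library. Ccne1, cyclin E1, was lower in every ibrutinib library than in any DMSO library (log2 fold change -0.46 ± 0.11 SE, adjusted p = 0.0093), with an adjusted p of 0.0556 without DMSO library D, 0.06 without ibrutinib library A and 0.0679 without ibrutinib library B. Orc1, of the origin recognition complex, did so too (log2 fold change -0.88 ± 0.21 SE, adjusted p = 0.00953), with an adjusted p of 0.0518 without ibrutinib library B.

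Regulators of G1 and targets of p53 moved both ways, with 5 of 29 higher and 5 lower (the rising count being 3 without ibrutinib B and the falling count 3 without the block). Cdkn1a (ENSMUSG00000023067, chr17:29090976-29100727, plus strand), the cyclin dependent kinase inhibitor p21, was counted at 1514, 2083, 3511 and 5019 under DMSO and at 209.8, 340.1, 831, 1028 and 233 under ibrutinib (log2 fold change -2.37 ± 0.39 SE, adjusted p = 0.00235). It was the gene named here that fell furthest. Its relative Cdkn1b, p27, went the other way at 2919, 2975, 2384 and 2548 under DMSO and at 4172, 5152, 3199, 3478 and 4919 under ibrutinib (log2 fold change 0.55 ± 0.10 SE, adjusted p = 0.00142). Zmat3, a p53 target, fell (log2 fold change -0.59 ± 0.11 SE, adjusted p = 0.0026), and Sesn2, a stress induced sestrin, fell (log2 fold change -0.68 ± 0.14 SE, adjusted p = 0.0036), whereas the FOXO target Sesn3 rose (log2 fold change 0.50 ± 0.07 SE, adjusted p = 1.76e-04). Sesn2 alone of these 5 overlapped between groups.

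In the unfolded protein and ATF4 list 6 of 29 genes fell, with 2 without ibrutinib B and 3 without DMSO A or D or without the block, and 0 rose by edgeR (2 at an unadjusted p under 0.05, 0 by DESeq2 and 0 by voom). They were led by Atf4 itself at 4822, 4041, 6694 and 6089 under DMSO and at 3069, 2883, 4213, 3598 and 3983 under ibrutinib (log2 fold change -0.65 ± 0.10 SE, adjusted p = 4.97e-04). Among heat shock chaperones 6 of 24 fell, with 1 without DMSO D and 3 without ibrutinib A or B or without the block, and 0 rose by edgeR (0 at an unadjusted p under 0.05, 0 by DESeq2 and 0 by voom). Hspa4l, an HSP110 family chaperone, fell (log2 fold change -0.48 ± 0.08 SE, adjusted p = 0.00108) and was called in all 9 fits without 1 library. Of 28 BCL2 family, death receptor and caspase genes 5 rose (0 without the block, 1 without DMSO D or without experiment B, 2 without DMSO A or ibrutinib B or D and 3 without ibrutinib A or C or in the repeat peptide libraries alone or with no low count filter) and 3 fell (1 without the block and 5 without DMSO B or by voom or by DESeq2). Bcl2 was higher in every pair (log2 fold change 0.37 ± 0.10 SE, adjusted p = 0.0181), with an adjusted p of 0.061 without ibrutinib library A and 0.0594 without ibrutinib library B, and moved opposite to Bcl2l1.

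GIMAP GTPases and quiescence genes rose, 13 of 26 higher and 0 lower by edgeR (0 at an unadjusted p under 0.05, 0 by DESeq2 and 0 by voom), with a median of 0.33. Pik3ip1, an inhibitor of PI3K in resting T cells, was counted at 1286, 968, 984 and 766 under DMSO and at 2190.4, 2446, 1387, 1616 and 2700.4 under ibrutinib (log2 fold change 0.91 ± 0.12 SE, adjusted p = 1.19e-04). Gimap3, a survival GTPase of lymphocytes, stood at 5068, 6287, 4862 and 4545 under DMSO and at 8067, 10476, 6582, 6379 and 8731 under ibrutinib (log2 fold change 0.59 ± 0.08 SE, adjusted p = 1.00e-04). Klf13 and the mRNA decay factor Zfp36l2 rose with log2 fold changes of 0.53 ± 0.09 and 0.52 ± 0.09. Ms4a6b rose (log2 fold change 0.66 ± 0.10 SE, adjusted p = 4.20e-04), and its highest value was in ibrutinib E. In all 5 the groups did not overlap.

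Several lists had few members that passed. Ribosome biogenesis had 1 gene of 35 higher, Rrp12 (log2 fold change 0.57 ± 0.10 SE, adjusted p = 8.81e-04), and 0 lower by edgeR (2 at an unadjusted p under 0.05, 0 by DESeq2 and 1 by voom), with 1 lower in the repeat peptide libraries alone. Its abundant member Npm1 was counted at 34055 to 40593 under DMSO and from 25598 to 58302 under ibrutinib (log2 fold change -0.11 ± 0.11 SE, adjusted p = 0.562). Ncl was counted at 35956 to 41788 under DMSO and from 31380.2 to 42590.4 under ibrutinib (log2 fold change -0.07 ± 0.11 SE, adjusted p = 0.728). Of 17 tested killer lectin-like and NK type receptors 0 rose by edgeR (1 at an unadjusted p under 0.05, 0 by DESeq2 and 0 by voom) and 0 fell by edgeR (1 at an unadjusted p under 0.05, 0 by DESeq2 and 1 by voom), with 1 in each direction without experiment B and 1 higher in the repeat peptide libraries alone. With a library left out the rising count reached 1, as without DMSO B, and the falling count 1, as without DMSO C. Klrk1, NKG2D, was counted at 14931, 15396, 14660.3 and 12869.6 under DMSO and at 11875, 13302, 13981, 13579 and 18693 under ibrutinib (log2 fold change -0.13 ± 0.09 SE, adjusted p = 0.363), and Klrd1, CD94, at 8515, 8949, 7189 and 7609 under DMSO and at 6426, 6883, 8787, 11120.3 and 16042 under ibrutinib (log2 fold change -0.01 ± 0.16 SE, adjusted p = 0.973). The range of Klrd1 within the ibrutinib group was wider than any difference between the groups, and library E held the highest value of both receptors. In the PI3K, AKT and mTOR list 2 of 29 rose (6.9%, beside 8.47% of all genes tested) and 2 fell (6.9%, beside 5.35%). Those that rose were Pik3r5 (log2 fold change 0.72 ± 0.09 SE, adjusted p = 9.10e-05) and Inpp4b (log2 fold change 0.43 ± 0.10 SE, adjusted p = 0.00747). The rising count was 1 without the block and 4 without DMSO C. The falling count was 1 without DMSO C or ibrutinib A or B or with no low count filter and 4 in the repeat peptide libraries alone. Of 29 chromatin and DNA methylation enzymes 3 fell (10.3%, beside 5.35% of all genes tested) and 0 rose by edgeR (2 at an unadjusted p under 0.05, 0 by DESeq2 and 0 by voom), the falling count being 0 without ibrutinib A or B or without the block, 1 without DMSO D or ibrutinib C, 5 by voom or by DESeq2 and 6 without DMSO C. With a library left out the rising count of this list reached 2, as without DMSO C. Among them Ezh2, the histone methyltransferase of Polycomb, was lower in every ibrutinib library than in any DMSO library (log2 fold change -0.42 ± 0.11 SE, adjusted p = 0.0217), with an adjusted p of 0.0992 without DMSO library A, 0.0678 without DMSO library B, 0.0593 without ibrutinib library A, 0.0838 without ibrutinib library B and 0.0564 without ibrutinib library C.

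Of 677 long non-coding RNA genes tested, 41 rose and 3 fell, compared with 997 and 653 of 11578 protein-coding genes. Those that passed were thus mostly higher, but the rising share of the 677 was below the 8.47% of all genes tested. Spata5l1 (log2 fold change 0.68 ± 0.15 SE, adjusted p = 0.00492), annotated as non-coding in the annotation used, Tmem250-ps (log2 fold change 0.55 ± 0.12 SE, adjusted p = 0.0055) and Zbtb11os1 rose. Zbtb11os1, which is antisense to Zbtb11 and was measured with a strand-specific kit, was counted at 71.0 to 185 under DMSO and from 182 to 343 under ibrutinib (log2 fold change 1.01 ± 0.24 SE, adjusted p = 0.0106). The named genes that fell did so with less certainty. The adjusted p of Ptprv (log2 fold change -0.46 ± 0.13 SE, adjusted p = 0.0282) was 0.0569 without DMSO library A, 0.0503 without DMSO library B, 0.0765 without DMSO library C, 0.125 without ibrutinib library A, 0.0835 without ibrutinib library C and 0.0777 without ibrutinib library D. That of Snhg6, a host gene of small nucleolar RNAs (log2 fold change -0.47 ± 0.15 SE, adjusted p = 0.0419), was 0.151 without DMSO library A, 0.0838 without DMSO library B, 0.143 without DMSO library D, 0.139 without ibrutinib library A, 0.158 without ibrutinib library B, 0.0763 without ibrutinib library C and 0.0557 without ibrutinib library D, and Snhg6 was not called by voom.

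The same contrast in single peptide cells gave 1114 genes (9.09%), 340 higher (2.77%) and 774 lower (6.32%), of which 341 were also called in repeat peptide cells. The difference between the contrasts was itself tested and passed for 679 genes (5.54%), with 545 (4.45%) higher and 134 (1.09%) lower in repeat than in single peptide cells by that difference and 409 of them also called in repeat peptide cells; the repeat and single peptide groups share the experiments but no library. In the GTPase and MHC list 25 of 31 genes passed that test. Gbp2 rose in repeat peptide cells and fell in single peptide cells (log2 fold change -1.34, adjusted p = 1.36e-05), a difference of 2.95 ± 0.19, adjusted p = 4.23e-07. Igtp did likewise, with -1.19, adjusted p = 9.67e-06 in single peptide cells and a difference of 2.09 ± 0.15, adjusted p = 1.35e-06. Irf7, by comparison, fell in both, with -0.81, adjusted p = 3.89e-04 in single peptide cells and a difference of 0.11 ± 0.17, adjusted p = 0.81.

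S1pr1, Il6ra and Smad3 rose more in repeat than in single peptide cells. The differences were 1.60 ± 0.31, adjusted p = 0.0103 for S1pr1, 2.23 ± 0.35, adjusted p = 0.00295 for Il6ra and 2.58 ± 0.30, adjusted p = 2.42e-04 for Smad3, none of which passed in single peptide cells. The difference did not pass for S1pr4 (0.45 ± 0.13, adjusted p = 0.0587) or Vsir (0.29 ± 0.14, adjusted p = 0.288). Prf1 fell in repeat peptide cells and rose in single peptide cells (0.86, adjusted p = 0.0238), a difference of -2.33 ± 0.30, adjusted p = 5.89e-04. Gzmb fell in both (-1.31, adjusted p = 0.00107 in single peptide cells), a difference of 0.20 ± 0.29, adjusted p = 0.787. Cell cycle genes leaned lower in both stimulations, with medians of -0.35 for replication and -0.38 for mitosis genes in repeat peptide cells. In single peptide cells 33 of 35 replication and 33 of 35 mitosis genes were called lower, at medians of -0.84 and -1.28. The difference itself passed for 13 replication and 15 mitosis genes. Foxp3, Gpr15 and Batf3 differed as well, with 3.30 ± 0.62, adjusted p = 0.00459, 1.46 ± 0.24, adjusted p = 0.0017 and -4.48 ± 0.89, adjusted p = 0.0073, but Batf3 was close to 0 in single peptide libraries, where no fold can be read.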

How the data were processed

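The deposited values were expected counts and TPM per gene, which the authors made with Trim Galore, STAR and RSEM 1.3.1 on GRCm38 with Ensembl genes. Libraries were paired-end and strand-specific, from oligo-dT selected RNA. Of 45706 genes listed, 45143 were matched to GENCODE M21 for names, types and positions. The authors' expected counts were taken to the nearest whole number. Protein-coding and lncRNA genes that passed filterByExpr (12255) were fitted in R 4.3.3 with edgeR 4.0.16 (TMM, robust quasi-likelihood, Benjamini-Hochberg adjustment over all genes tested) on all 18 libraries, with group and experiment as terms. Standard errors are the log2 fold change over the signed root of the F statistic. The deposited TPM were averaged only to compare levels between kinases.

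Same-experiment libraries deviated together from their group means: the 24 such pairs correlated at 0.16 to 0.494 and the 4 repeat peptide pairs at 0.338 to 0.494, against a median of -0.076 over the 97 other pairs, so the experiment was kept as a block. No 2 libraries of the same repeat peptide group agreed within counting noise, and the single peptide groups were not compared in this way. Alternatives were no block, voom in limma 3.58.1 with experiment as a random term, DESeq2 1.42.0, repeat peptide libraries alone, other filters, and each library left out. The scripts were tested on simulated counts.

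The comparison and the 28 gene lists were chosen with earlier results of these data known. Named genes were the 12 higher and 12 lower protein-coding genes with the smallest p called only with the block and in the same direction in 4 pairs, up to 5 called members of each list (2 abundant members where fewer than 2 were called), 3 named lncRNA genes in each direction, and Btk, Tec and Txk. Some genes of this rule are not reported here. Exons of Foxp3, Ifi47, Ifng, Notch2 and Tgtp1 also overlap another annotated gene on their strand. Promoters came from RefSeq.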

Additional observations from a re-analysis of the deposited data

Results flagged for a closer look

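In 56 of the named genes the effect of ibrutinib differed between repeat and single peptide cells by the interaction test of the edgeR model, with the experiment as a block. The values here are the log2 fold change in repeat peptide cells minus that in single peptide cells.

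Genes that moved in opposite directions and passed in both regimes were mostly interferon inducible. They rose in repeat and fell in single peptide cells, and the difference was 2.95 for Gbp2, 2.09 for Igtp, 1.80 for Ifit1bl1, 1.62 for Tgtp1, 1.62 for Parp12, 1.60 for Irgm2, 1.52 for Tgtp2 and 1.13 for Ifi47. Prf1 fell in repeat and rose in single peptide cells, with a difference of -2.33. Irf8 fell in both and further in single peptide cells, so that its difference was 1.66.

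The other genes passed in repeat peptide cells and not in single peptide cells. Among those higher in repeat peptide cells, receptors and homing genes differed by 2.23 for Il6ra, 1.65 for Klf3, 1.60 for S1pr1, 1.46 for Gpr15, 1.07 for Itgb7, 0.95 for Il4ra, 0.85 for Il27ra, 0.84 for Il10ra, 0.78 for Crtam, 0.77 for Ltb, 0.77 for Tnfrsf14, 0.66 for Sit1, 0.63 for Nt5e and 0.55 for Ms4a6b. Signalling genes and transcription factors differed by 3.30 for Foxp3, 2.58 for Smad3, 1.84 for Jun, 1.32 for Txk, 1.19 for Rasa3, 0.83 for Socs3, 0.78 for Gimap3, 0.72 for Pik3r5, 0.71 for Grap2, 0.59 for Klf11, 0.57 for Notch2, 0.55 for Lef1, 0.52 for Bcl11b and 0.46 for Sesn3. The remaining rising genes differed by 1.76 for Pde5a, 1.00 for Tha1, 0.67 for Fam214a, 0.61 for Gm45713 and 0.55 for Rrp12.

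Among genes lower in repeat peptide cells the difference was -4.48 for Batf3, -2.65 for Cd81, -1.16 for Dusp5, -1.06 for Cd200, -0.93 for Rbpj, -0.90 for Sesn2, -0.86 for Cst3, -0.73 for Ptprv, -0.65 for Icos, -0.57 for Fam162a, -0.55 for Sla, -0.48 for Bcl2l1 and -0.46 for Il2rb.

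A library stood apart from the others of its group in 7 of 252 groups examined, by the gap to its neighbour against the range of the group, where chance gives about 1 in 20. Under DMSO these were Lat2 in library B at 1378, S1pr4 in library B at 4408, and, on the low side, Isg15 at 132 and Tfrc at 13592 in library B. Under ibrutinib they were Itgb7 in library A at 24356, Rora in library B at 620.0 and Ms4a6b in library E at 26573. The values were kept.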

How the results depend on the processing

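Without the block the count fell from 1694 to 726 genes (491 higher and 235 lower), in the interaction from 679 to 154 (128 and 26) and in single peptide cells from 1114 to 373 (43 and 330). A log2 fold change beyond 1 left 282 genes (184 and 98). With 1 library left out, the counts ranged from 945 to 1957, from 680 to 1163 higher and from 252 to 794 lower. The interaction count ranged from 447 (without ibrutinib A) to 912 and the single peptide count from 962 to 1410. Without all 4 libraries of experiment B, an alternative added after seeing the data, 414 genes were lower, 758 higher and 1172 in all. Voom gave 1771, of which 50.6% were higher against 61.3% in the model reported. The cause of these differences was not tested beyond the number of libraries left.

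Of 125 named genes tested, the direction turned only for 3 that passed in no fit reported: Klrd1, at -0.01 in the model reported, was at 0.29 without the block, 0.028 in repeat peptide libraries alone, 0.12 by voom, 0.0074 with no filter, 0.13 without experiment B and from -0.15 to 0.13 with a library left out. Npm1 was at 0.11 without the block, 0.021 without experiment B and from -0.205 to 0.0021 with a library left out, and Ncl at 0.0091 without ibrutinib B. Of the 120 genes named and called, 80 were called without the block and 109 in all 9 fits with a library left out. DESeq2 and its size factors changed no call of a named gene, and voom lost 5. Counting limits the low genes, above all Foxp3 and Btk, and 4 pairs limit the rest.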
